A study of Mus musculus with 12 samples.

Results

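Liver RNA-seq profiles of mice aged 12 months (middle-aged) were compared with those of mice aged 3 months (young), which makes 8 of the 12 libraries of the series. The samples were chosen by the age on their labels, and all annotated genes of the count table entered the comparison, while the synthetic spike-in RNAs were left out. Each group held 4 livers, and each liver came from 1 animal. All animals were untreated C57BL/6N mice, and per the methods they were males with free access to a standard diet. A further 4 livers of 18 months (aged) entered the fit to share the estimate of the spread between animals. They were also set against the middle-aged livers for some clock genes. The labels describe the RNA preparation for young and old livers alone, and the methods also draw on a public atlas for RNA-seq of 3 ages, so how the middle-aged libraries were made is uncertain. The hour of the day at which the livers were taken was not given in the sources used here.

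The liver adjusts its output to the time of day and to feeding. In hepatocytes the activators CLOCK and BMAL1 (encoded by Arntl) switch on repressors such as the Per and Cry genes, and output factors such as DBP and TEF pass the rhythm on to metabolic genes. In male mice, pulses of growth hormone acting through STAT5B keep up a set of male-biased genes, among them those for the major urinary proteins, which carry pheromones into the urine. The organ also makes most plasma proteins, cholesterol and bile acids, and it clears hormones and foreign compounds through cytochrome P450 and conjugating enzymes.

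Counts assigned to genes ranged from 8124312 to 10527159 per library, so that 3 counts corresponded to between 0.285 and 0.369 CPM (counts scaled to the library total). Young replicate 3 had 22284 detected genes and middle-aged replicate 1 had 19982, against 16361 to 17563 in the other libraries. The same 2 libraries had the highest summed levels of olfactory and vomeronasal receptor genes, at 133 and 61.7 CPM against at most 19.5 CPM in the others. Mitochondrially encoded genes took 19.2% of the counts in young replicate 2, 7.4 to 10.7% in the other young livers and 6.45 to 9.03% in the middle-aged ones. Spike-ins made up 3.5 to 10.6% of all counts in young and 1.59 to 2.73% in middle-aged libraries, without overlap. The relative abundances of 33 spike-ins split the libraries at each age into replicates 1 and 2 (set A) and replicates 3 and 4 (set B), where correlations across spike-ins were 0.997 or more inside a set and no higher than 0.934 from one set to the other. Changes are therefore also given within each set, where 2 livers stood against 2. Hepatocyte markers were abundant in every library, with a summed level of 81400 to 99600 CPM in young and 99100 to 104000 CPM in middle-aged livers, and DESeq2 and edgeR called 0 of 10 of them (unadjusted p under 0.05 for 3 and 1). In whole tissue, fewer cells of a type and less RNA per cell cannot be told apart.

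Levels are given below as normalised read counts, which are counts divided by a size factor for each library. A log2 fold change compares middle-aged with young livers and stands with its standard error (±). A gene was called when its adjusted p from the DESeq2 fit of all 12 libraries was under 0.05. DESeq2 called 727 of 11333 tested genes (6.41%), of which 398 were higher (3.51%) and 329 lower (2.9%) in middle-aged livers. The median size of a called change was 0.56 on the log2 scale, and 125 called genes changed by at least 2-fold, 69 of them upward and 56 downward. All 4 middle-aged values lay above all 4 young ones in 906 tested genes (7.99%) and below them in 902 (7.96%). The quasi-likelihood test of edgeR called 280 of 12099 genes (2.31%), 276 of them shared with DESeq2. The number of DESeq2 calls also depended on single animals: it was 345 without middle-aged replicate 2, 349 without young replicate 2, 389 without middle-aged replicate 4, 409 without young replicate 3 and 430 without middle-aged replicate 3. In all, 184 of the 727 genes were called in each of the 8 fits that left out 1 liver and by edgeR as well, 106 of them higher and 78 lower at middle age. They are described below as passing throughout, a grouping made after the data were seen. Medians over a list were taken over its members with a mean of at least 10 normalised read counts, called expressed below.

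**Figure D1:**
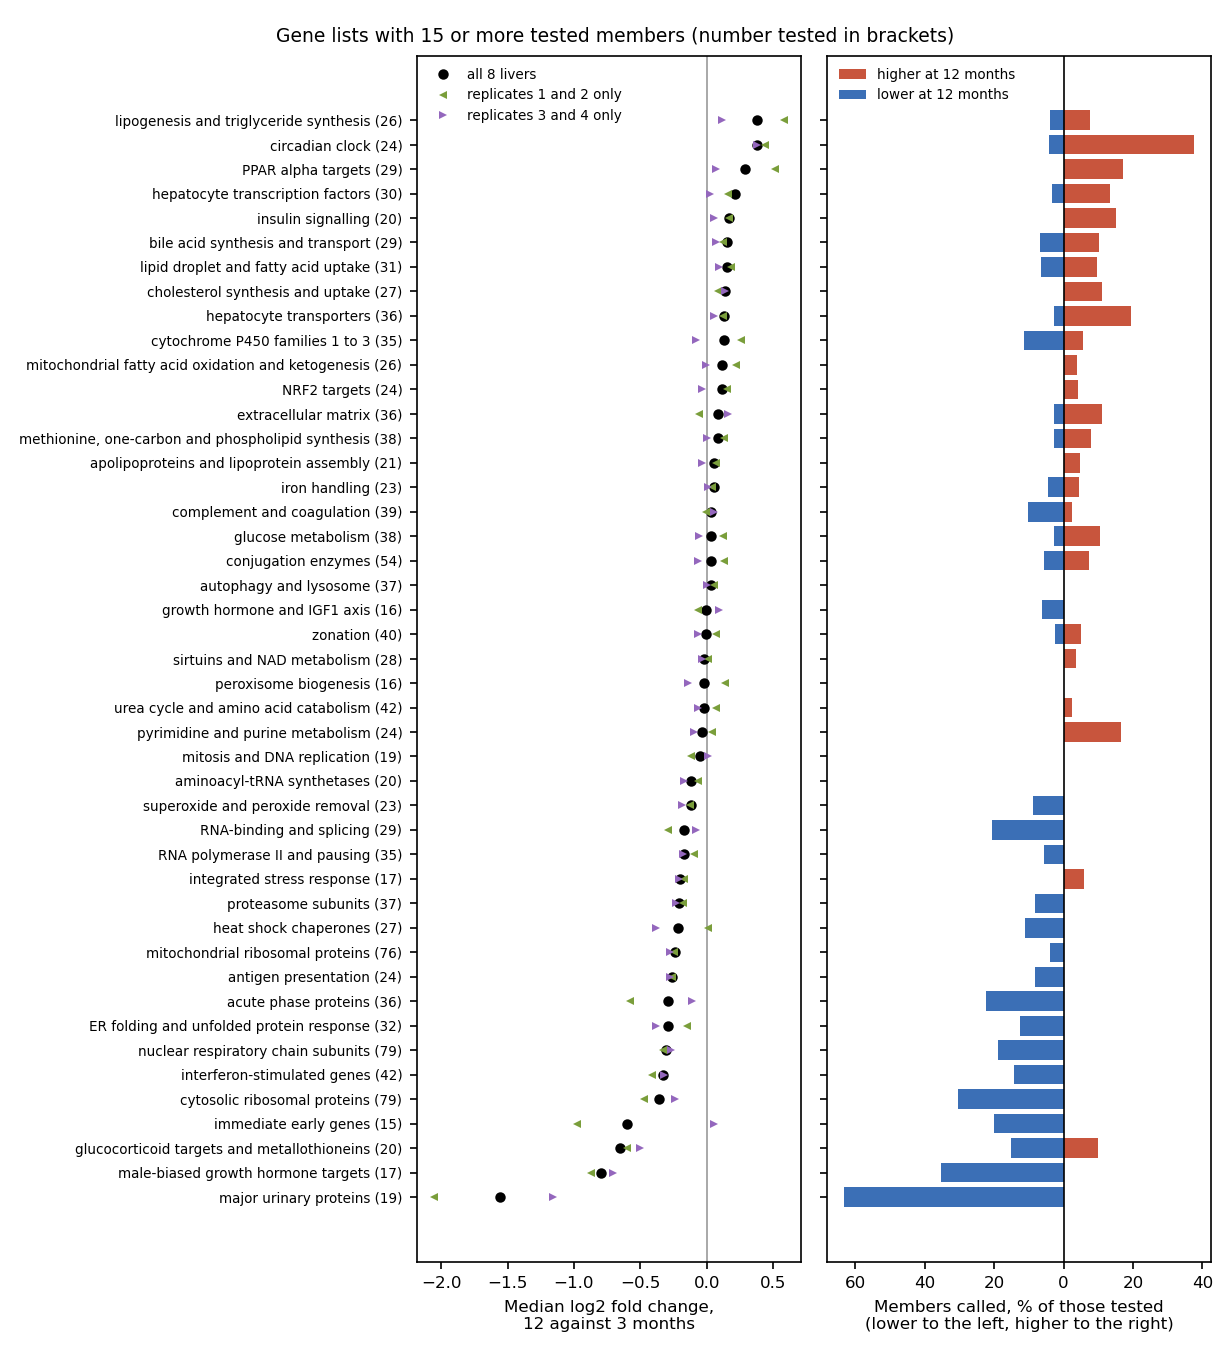
Gene lists with 15 or more tested members, ordered by the median log2 fold change of middle-aged against young livers (left, log2 units; black points for all 8 livers, triangles for replicates 1 and 2 and for replicates 3 and 4 alone). The right panel gives the percentage of tested members called higher (red) or lower (blue). Medians ran from -1.56 for the major urinary proteins to 0.38 for the clock and lipogenesis lists. Several lists had medians of opposite sign in the 2 sets, among them the immediate early genes, cytochrome P450 genes and glucose metabolism.

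Among lists with 15 or more tested members, that of the circadian clock and its outputs had the largest share of rises. Of 24 tested members 9 rose and 1 fell, against 3.51% and 2.9% of all tested genes. As the hour of dissection is unknown, a difference in hour between the groups cannot be told apart from age for these rhythmic genes. Noct (ENSMUSG00000023087, chromosome 3, 51224447 to 51251644, GRCm38), a rhythmic phosphatase of NADP cofactors once described as a deadenylase, had 82.8, 125, 101 and 122 normalised read counts in young replicates 1 to 4 and 755, 602, 801 and 776 in middle-aged ones (6.82-fold; log2 fold change 2.77 ± 0.55, DESeq2 adjusted p = 0.0001). Dbp, a transcription factor of the proline and acidic-rich bZIP family that drives clock output, had 188, 220, 173 and 130 in young and 908, 657, 503 and 686 in middle-aged livers (3.88-fold; log2 fold change 1.95 ± 0.56, DESeq2 adjusted p = 0.0142). The groups stood far apart for both genes, with every middle-aged liver above every young one.

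Both a relative of Dbp and its competitor were called, in opposite directions. Tef, the relative, had 548, 567, 486 and 435 in young and 1156, 853, 780 and 1023 in middle-aged livers (log2 fold change 0.91, DESeq2 adjusted p = 0.0018). Nfil3, a repressor that competes with DBP and TEF for the same sites, had 216, 296, 384 and 421 in young and 192, 175, 181 and 105 in middle-aged livers (log2 fold change -1.01, DESeq2 adjusted p = 0.000691). The ages did not overlap for either gene, and the fall of Nfil3 was -0.48 in set A and -1.50 in set B. Hlf, the remaining activator of this family, had a log2 fold change of 0.46 and was not called (DESeq2 adjusted p = 0.104).

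Among the repressors of the core loop, Per3 had 26.5, 43.3, 32 and 16.6 in young and 111, 76.3, 56.5 and 91.2 in middle-aged livers (log2 fold change 1.51 ± 0.34, DESeq2 adjusted p = 0.000943), and Cry2 rose by 0.59 and Bhlhe40 by 0.80 on the log2 scale. Per2 (0.29), Cry1 (-0.25) and Bhlhe41 (0.57) were not called. Per1, which also responds to glucocorticoids, had 88.1, 150, 88.9 and 123 in young and 49.6, 84.4, 56.5 and 49.1 in middle-aged livers, where all middle-aged values lay below all young ones, yet it was not called (DESeq2 adjusted p = 0.196). None of the 3 tested activators was called: the log2 fold changes were -0.79 for Arntl, -0.82 for Npas2 and -0.07 for Clock. Arntl had 64.7, 58.6, 154 and 136 in young and 34.8, 70.9, 88.3 and 44.1 in middle-aged livers, so that the groups overlapped. In the second loop, which feeds back on Arntl, Nr1d2 rose by 0.66, while Nr1d1 was not called (0.68 in set A and -0.21 in set B).

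A further clock-linked gene that rose was Wee1, a kinase that delays mitosis, with 12.7, 20.4, 24.9 and 16.6 in young and 81.4, 71.8, 32.7 and 59.1 in middle-aged livers (log2 fold change 1.72 ± 0.35, DESeq2 adjusted p = 0.000147). Noct, Tef and Nfil3 passed throughout. Cry2 passed in 4, Nr1d2 in 3 and Bhlhe40 in 2 of 8 leave-one-out fits, and edgeR called none of them (edgeR adjusted p = 0.0653, 0.0696 and 0.109). Per3 and Wee1 were called by edgeR and in each of the 5 and 4 leave-one-out fits that gave them an adjusted p. Dbp passed in 5 of 8 leave-one-out fits (highest DESeq2 adjusted p = 0.0611, without young replicate 3) and was called by edgeR (edgeR adjusted p = 0.0333). The clock list held between 4 (without middle-aged replicate 1) and 7 (without young replicate 2) rises when 1 liver was left out.

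**Figure D2:**
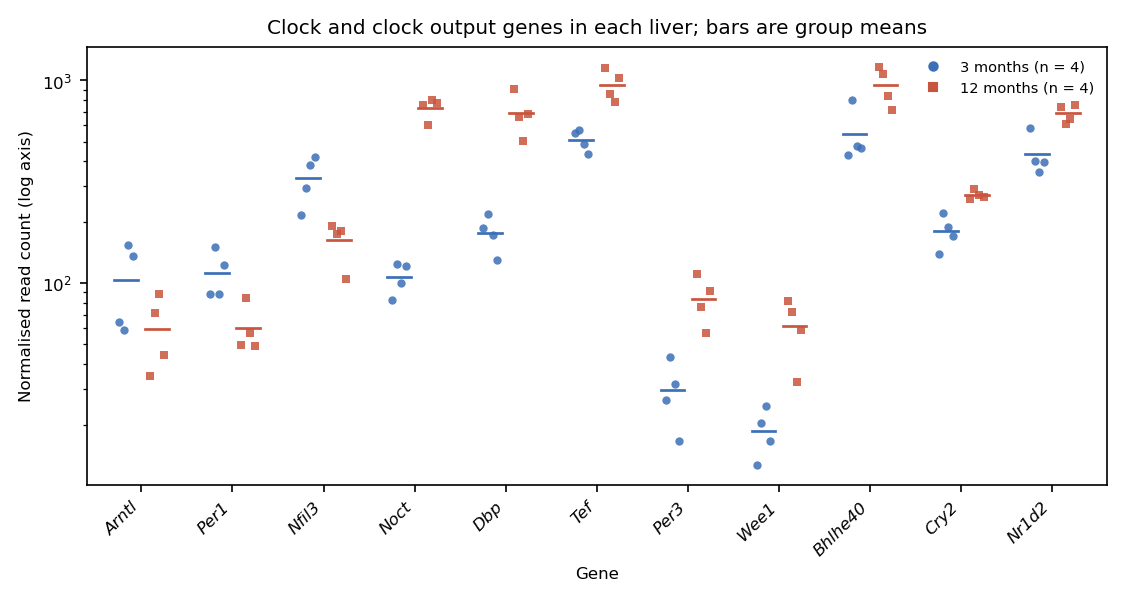
Normalised read counts (log axis) of 11 clock and clock output genes in each of 4 young (circles) and 4 middle-aged livers (squares), with bars at the group means. The points of Noct lie at 82.8 to 125 and at 602 to 801, those of Dbp at 130 to 220 and at 503 to 908, and among the genes shown those of Arntl and Bhlhe40 overlap between the ages.

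The sequences before the start of 4 of these genes are shown because the clock and DBP act through short promoter elements. Windows of 250 bases before each annotated start were read from RefSeq promoter sequences (build GRCm38.p6), which held 7 of the 10 called clock genes in 8 windows. They were searched on both strands for the E-box CACGTG, bound by CLOCK and BMAL1, and for the D-box in the forms TTATGTAA (TTACATAA on the other strand) and TTACGTAA, bound by DBP, TEF and NFIL3. Matches are in capitals. The windows lie at chr3:51224197-51224446 (Noct, plus strand), chr7:45704997-45705246 (Dbp, plus strand), chr4:151044666-151044915 (Per3, minus strand), and chr15:81802423-81802672 and chr15:81811164-81811413 (the 2 starts of Tef, plus strand).
Noct: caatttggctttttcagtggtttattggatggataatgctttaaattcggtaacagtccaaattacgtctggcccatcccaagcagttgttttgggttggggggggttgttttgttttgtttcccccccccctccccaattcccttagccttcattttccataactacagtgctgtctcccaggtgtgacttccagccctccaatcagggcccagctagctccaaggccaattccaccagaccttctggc
Dbp: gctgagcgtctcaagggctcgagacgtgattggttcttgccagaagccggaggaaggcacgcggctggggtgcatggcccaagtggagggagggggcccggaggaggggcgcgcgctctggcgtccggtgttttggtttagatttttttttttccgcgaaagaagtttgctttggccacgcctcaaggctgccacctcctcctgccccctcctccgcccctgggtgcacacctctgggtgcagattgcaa
Per3: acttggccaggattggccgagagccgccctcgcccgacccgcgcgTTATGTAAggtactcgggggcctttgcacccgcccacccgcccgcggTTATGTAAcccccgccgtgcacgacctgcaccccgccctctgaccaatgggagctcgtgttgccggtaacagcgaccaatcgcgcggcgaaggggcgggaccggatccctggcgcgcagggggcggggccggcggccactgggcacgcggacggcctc
Tef start 1: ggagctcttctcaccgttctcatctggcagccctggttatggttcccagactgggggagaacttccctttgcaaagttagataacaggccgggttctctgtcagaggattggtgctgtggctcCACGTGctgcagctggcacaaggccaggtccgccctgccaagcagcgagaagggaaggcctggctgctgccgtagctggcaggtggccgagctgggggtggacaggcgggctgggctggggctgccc
Tef start 2: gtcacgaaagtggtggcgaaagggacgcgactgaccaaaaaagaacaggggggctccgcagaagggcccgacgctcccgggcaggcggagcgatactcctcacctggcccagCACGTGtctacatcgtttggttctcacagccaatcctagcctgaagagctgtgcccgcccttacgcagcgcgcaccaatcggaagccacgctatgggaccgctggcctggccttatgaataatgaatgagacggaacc
The Per3 window held 2 D-boxes, beginning 205 and 158 bases before the start, and each Tef window held an E-box, at 127 and 138 bases before it. None of these motifs occurred in the windows of Noct, Dbp, Cry2, Nfil3 and Nr1d2, and Wee1 and Bhlhe40 had no window in the table. Over all 32851 windows of the same length, 6.02% held the E-box and 0.931% a D-box. A match is a string of letters and not a measured binding site.

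At 18 months Per3, Wee1 and Noct stood at other levels again, and the other clock genes are not described here at that age. Aged livers had 25.1, 18.3, 9.6 and 15.2 counts of Per3 and 19.1, 15.4, 22.7 and 17 of Wee1, which were below those of the middle-aged livers (log2 fold changes of aged against middle-aged livers -2.31 and -1.72; DESeq2 adjusted p = 1.78e-07 and 0.000303). Noct had 1221, 1519, 305 and 217 in aged replicates 1 to 4, high in set A and low in set B. That comparison called 117 of 10236 genes (1.14%), and it shares the middle-aged livers with the one described here.

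Male-biased genes of the growth hormone axis included falls and no rises. In a list of 17 tested male-biased growth hormone targets 6 fell and 0 rose, and the median log2 fold change was -0.80, against 0.007 over all tested genes. The median was -0.87 in set A and -0.71 in set B. Elovl3 (ENSMUSG00000038754, chromosome 19, 46131897 to 46135694), an elongase of very long fatty acids, had 3106, 3840, 3051 and 5174 in young and 1100, 1682, 1987 and 1259 in middle-aged livers (2.52-fold lower; log2 fold change -1.33 ± 0.23, DESeq2 adjusted p = 2.53e-06). Cyp4a12a, the main male fatty acid omega-hydroxylase of the liver, had 3530, 2682, 3423 and 3226 in young and 1335, 1417, 1928 and 1292 in middle-aged livers (log2 fold change -1.11 ± 0.20, DESeq2 adjusted p = 5.58e-06). No middle-aged liver reached the lowest young one for either gene. Cyp4a12b, Cyp7b1, the peroxisomal coenzyme A hydrolase gene Nudt7 and the complement gene C6 fell as well (log2 fold changes -1.32, -1.13, -0.71 and -0.72). All of these but C6 passed throughout, while C6 was not called by edgeR (edgeR adjusted p = 0.114). Cyp4a12a and Cyp4a12b are near-identical copies whose reads may be split between them.

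Hsd3b5, a male-specific steroid dehydrogenase, had 4214, 4399, 4392 and 4411 in young and 2705, 1986, 2678 and 2604 in middle-aged livers. These values did not overlap, yet it was not called in the fit that shares its estimate of spread with the aged livers (DESeq2 adjusted p = 0.122), whose values were 3188, 3162, 932 and 1749. In all, 12 of the 17 genes had all middle-aged values below all young ones, against 7.96% of all tested genes. In the female-biased list 2 of 10 tested members were higher and 2 lower. Its median over 7 expressed members was 0.67 (0.57 in set A and 0.78 in set B), and 5 of them had a positive log2 fold change. Its fallen members were Cyp2c40 (279, 548, 712 and 140 in young and 64.5, 53.9, 20.3 and 36.1 in middle-aged livers; log2 fold change -3.26 ± 0.55, DESeq2 adjusted p = 1.7e-06) and its close copy Cyp2c69 (-2.93), and Atp6v0d2, a subunit of the proton pump, rose by 1.59.

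The major urinary proteins had the lowest median of all lists with 15 or more tested members. Of 19 tested genes of the family 12 fell and 0 rose, with a median log2 fold change of -1.56, and 15 had all middle-aged values below all young ones. Mup17 (ENSMUSG00000096688, chromosome 4, 61591929 to 61595871) had 45665, 34093, 30910 and 13852 in young and 1114, 1184, 1817 and 1304 in middle-aged livers (23-fold lower; log2 fold change -4.52 ± 0.52, DESeq2 adjusted p = 1.8e-14). Mup15 (-4.42) and Mup9 (-4.69) fell by similar amounts. Young livers varied widely for Mup17, and the lowest of them still lay above all middle-aged ones. Leaving out 1 liver left between 8 (without middle-aged replicate 1) and 12 calls, and 7 of the genes passed throughout. Members of this family share reads with near-identical copies, so the values of single genes are uncertain.

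Components of growth hormone signalling itself gave 1 call. Of 16 tested members of the growth hormone and IGF1 axis 1 fell and 0 rose, with a median of -0.01. That is 6.25% called, near the 6.41% of all tested genes. The growth hormone receptor gene Ghr (0.13), Stat5b (0.07) and Igf1 (-0.26) were not called, and Igf1 had 4987, 6271, 5196 and 5082 in young and 5200, 4216, 4148 and 4384 in middle-aged livers. Cish, a direct target of STAT5, had 415, 292, 16.6 and 16.6 in young and 162, 14.4, 253 and 291 in middle-aged livers, lower at middle age in set A and higher in set B (interaction of age and set, DESeq2 adjusted p = 0.0164). The gene called was Igfbp1 (ENSMUSG00000020429, chromosome 11, 7197782 to 7202546), a secreted binding protein of insulin-like growth factors that insulin represses. It had 260, 569, 482 and 429 in young and 36.7, 66.4, 24.7 and 41.1 in middle-aged livers (10.3-fold lower; log2 fold change -3.36 ± 0.60, DESeq2 adjusted p = 5.58e-06), and passed throughout.

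In the list of insulin signalling 3 of 20 tested members rose and 0 fell (15% called, against 6.41% of all tested genes). Enpp1, an ectonucleotidase that can bind and inhibit the insulin receptor, had 158, 118, 159 and 167 in young and 258, 348, 269 and 359 in middle-aged livers (2.04-fold; log2 fold change 1.03 ± 0.15, DESeq2 adjusted p = 7.79e-09), and every middle-aged liver lay above all young ones. The insulin receptor gene Insr rose by 0.49. Pdk1, which rose by 0.81, encodes a pyruvate dehydrogenase kinase that restrains pyruvate oxidation and is not itself a step of insulin signalling. Of the 3, only Enpp1 passed throughout. Insr passed in 2 of 8 leave-one-out fits (highest DESeq2 adjusted p = 0.148, without young replicate 2), and edgeR did not call it (edgeR adjusted p = 0.0907).

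**Figure D3:**
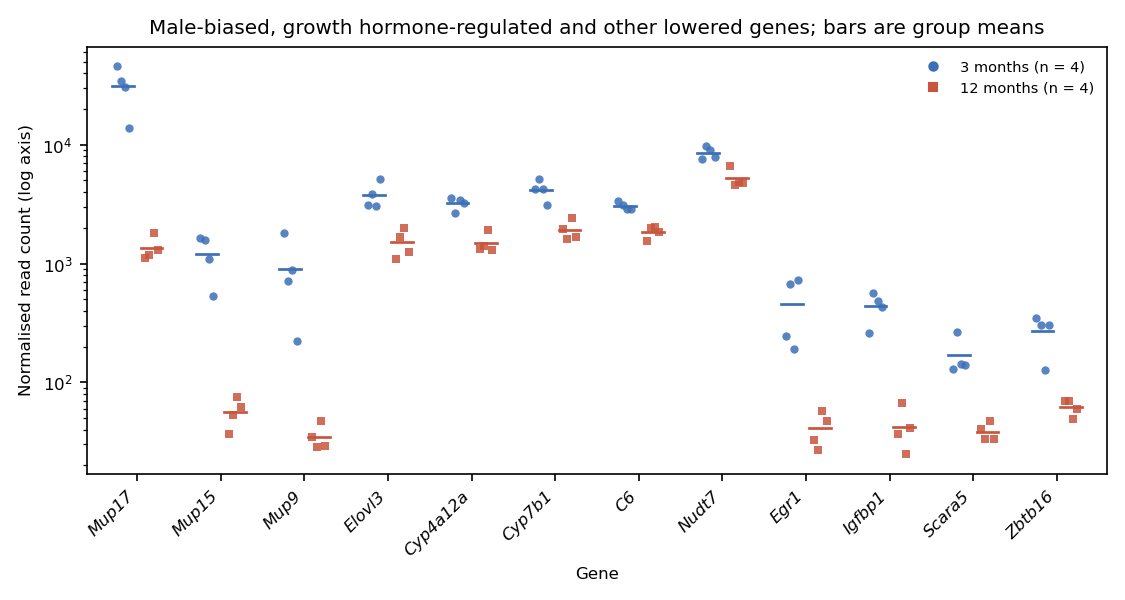
Normalised read counts (log axis) of 12 genes lower at middle age in each of 4 young (circles) and 4 middle-aged livers (squares), with bars at the group means. For each of the 12 genes the lowest young point lies above the highest middle-aged one, with Mup17 at 13852 to 45665 and at 1114 to 1817, and Igfbp1 at 260 to 569 and at 24.7 to 66.4.

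Transcription factors of hepatocytes gave more rises than falls. Of 30 tested members 4 rose and 1 fell (16.7% called, against 6.41% of all tested genes). The estrogen receptor gene Esr1 (ENSMUSG00000019768, chromosome 10, 4611593 to 5005614) had 130, 132, 110 and 120 in young and 223, 200, 170 and 212 in middle-aged livers (1.64-fold; log2 fold change 0.71 ± 0.15, DESeq2 adjusted p = 0.000255). All middle-aged livers exceeded all young ones, and the rise was 0.69 in set A and 0.72 in set B. Nr2f2 (COUP-TFII; 0.56) and Nr5a2 (LRH-1; 0.45) also rose, and Esr1 and Nr2f2 passed throughout. Hnf4a, the central hepatocyte factor, was not called (-0.19).

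The gene with the largest rise under the rule for named genes was Serpinb1a (ENSMUSG00000044734, chromosome 13, 32842092 to 32851185), an inhibitor of neutrophil serine proteases. It had 86, 42, 77 and 69.3 in young and 774, 621, 333 and 336 in middle-aged livers (7.51-fold; log2 fold change 2.91 ± 0.33, DESeq2 adjusted p = 1.8e-14). Unc13b, a vesicle priming factor, had 57.3, 57.3, 61.6 and 63.5 in young and 220, 173, 162 and 194 in middle-aged livers (3.13-fold; log2 fold change 1.65 ± 0.30, DESeq2 adjusted p = 1.15e-05). Both genes passed throughout, with young values within a narrow range. The rule also named Ntrk2, a neurotrophin receptor (2.08), the transporters Slc16a5 (1.58) and Slc17a8 (1.56), and Fam198a (1.38), beside Noct, Dbp and Per3. The calls of Ntrk2 and Slc16a5 were not shared by edgeR (edgeR adjusted p = 0.0651 and 0.0525).

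Lipid synthesis genes had mostly positive log2 fold changes, few of which passed the test. Of 26 tested genes of lipogenesis and triglyceride synthesis 2 rose and 1 fell (11.5% called, against 6.41% of all tested genes). The median log2 fold change of the list was 0.38. All 15 tested fatty acid synthesis genes had a positive log2 fold change, with a median of 0.91 in set A and 0.19 in set B. Scd1, which makes monounsaturated fatty acids, had 74024, 42530, 68974 and 89037 in young and 117177, 188429, 113959 and 137792 in middle-aged livers (log2 fold change 1.02 ± 0.35, DESeq2 adjusted p = 0.051), so that the groups did not overlap and the p lay just above the threshold. Fasn, the fatty acid synthase gene, had 5855, 3132, 6196 and 4274 in young and 11479, 13264, 5282 and 9789 in middle-aged livers (log2 fold change 1.03 ± 0.41, DESeq2 adjusted p = 0.103) and overlapped. Srebf1, the transcription factor that drives these genes, had 1833, 1788, 1910 and 1370 in young and 3230, 3637, 2536 and 2696 in middle-aged livers and rose (1.75-fold; log2 fold change 0.81 ± 0.20, DESeq2 adjusted p = 0.00382). Pklr, which catalyses the last step of glycolysis, rose by 0.77, and Insig2, which holds back the processing of SREBP proteins, fell by a log2 fold change of -0.70. Srebf1 and Insig2 were called in all 8 leave-one-out fits but not by edgeR (edgeR adjusted p = 0.0506 and 0.0546).

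Cholesterol synthesis and uptake gave rises and no falls. Of 27 tested members 3 rose and 0 fell (11.1% called, against 6.41% of all tested genes), and these 3 passed throughout. Sqle, an epoxidase of sterol synthesis (-0.02), and Srebf2, the transcription factor of the pathway (0.24), were not called, and the median over the 20 enzymes was 0.06.

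PPAR alpha targets were called more often than all tested genes, while genes of mitochondrial fatty acid oxidation were not. Of 29 tested PPAR alpha targets 5 rose and 0 fell (17.2% called, against 6.41% of all tested genes), including Acot4, a peroxisomal thioesterase (1.21), and Ppara itself (0.76), and only Acot4 passed throughout. Without young replicate 2, 1 rise was called in this list, and edgeR called 1. Cyp4a14, a sensitive PPAR alpha target, had 34, 1.3, 16.6 and 14.6 in young and 314, 136, 44.2 and 43.1 in middle-aged livers and was not called (log2 fold change 3.01 ± 1.26, DESeq2 adjusted p = 0.131). The list's median was 0.51 in set A and 0.07 in set B. Of 26 genes of mitochondrial fatty acid oxidation and ketogenesis 1 rose (3.85% called). Of 31 genes of lipid droplets and fatty acid uptake 3 rose and 2 fell (16.1% called). Fitm1, which helps to form lipid droplets (0.87), and the lipases Lipa (0.44) and Mgll (0.38) rose, whereas the fatty acid carrier Fabp5 (-1.99) and the lipase activator Abhd5 (-0.59) fell. Without young replicate 2 neither list held a rise. Apoa4, an apolipoprotein made by liver and gut, rose by 0.87, as the only one of 21 apolipoprotein and lipoprotein assembly genes, and passed throughout.

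In the bile acid list the synthesis genes that were called fell and the transporters that were called rose. Among 12 synthesis genes 2 fell and 0 rose, and among 12 transporters 2 rose and 0 fell. The share called was 16.7% in each, against 6.41% of all tested genes, and the medians were -0.05 and 0.17. Without young replicate 2 the transporters held 1 rise. Cyp7b1, the hydroxylase of the alternative pathway, had 4212, 5168, 4270 and 3085 in young and 1967, 1596, 2400 and 1668 in middle-aged livers (2.19-fold lower; log2 fold change -1.13 ± 0.26, DESeq2 adjusted p = 0.00103). Cyp2c70, which makes the muricholic acids of mice, fell by a log2 fold change of -0.83, and both passed throughout. Cyp7a1, the rate-limiting enzyme of the classical pathway, had 730, 546, 1013 and 1682 in young and 1324, 3388, 671 and 1531 in middle-aged livers and was not called (DESeq2 adjusted p = 0.388), with middle-aged replicate 2 far above the others. The export pumps Abcc2 (0.55) and Abcc3 (0.83) rose, neither with a call by edgeR (edgeR adjusted p = 0.0676 and 0.0582).

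Enzymes of drug and hormone clearance moved in both directions. Of 35 tested P450 genes of families 1 to 3 with their reductase, 2 rose and 4 fell, and of 54 conjugation enzymes 4 rose and 3 fell. The shares called were 17.1% and 13%, against 6.41% of all tested genes. Ugt2b1, a glucuronosyltransferase, had 13166, 12581, 12331 and 10725 in young and 6810, 6990, 7147 and 6438 in middle-aged livers (1.78-fold lower; log2 fold change -0.83 ± 0.15, DESeq2 adjusted p = 3.9e-06). Gsta2, a glutathione transferase, had 401, 313, 498 and 544 in young and 778, 814, 803 and 615 in middle-aged livers (log2 fold change 0.78 ± 0.17, DESeq2 adjusted p = 0.000716). The groups were separate in both cases, and both genes passed throughout, as did Ugt1a9 (-1.07), Papss2 (0.56), Cyp2c37 (0.89) and Cyp2c68 (-0.58). The rise of Cyp2c37 was 1.42 in set A and 0.37 in set B (interaction, DESeq2 adjusted p = 0.0149). The P450 reductase Por rose (0.67) and Cyp1a2, which clears caffeine, fell (-0.58), neither with a call by edgeR. Among 36 hepatocyte transporters 7 rose and 1 fell, but without middle-aged replicate 2 the list held 1 rise. Slc22a5, the carnitine transporter, rose by 0.65. The transporter gene that fell, Slc22a30 (-0.42), passed throughout. Genes of the Cyp2c and Ugt families have close copies, which limits the certainty of single values.

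In nucleotide metabolism 4 of 24 tested genes rose and 0 fell (16.7% called, against 6.41% of all tested genes). Slc28a1, a nucleoside transporter singled out after its values were seen because its mean lay under the limit for named genes, had 11.7, 3.8, 2.4 and 12.7 in young and 78.4, 67.3, 45.9 and 66.1 in middle-aged livers (8.13-fold; log2 fold change 3.02 ± 0.39, DESeq2 adjusted p = 2.9e-11; edgeR adjusted p = 0.00163). The uric acid oxidase gene Uox (0.39) and the pyrimidine-degrading enzymes Dpyd (0.40) and Dpys (0.33) rose by less, and without middle-aged replicate 2 the list held 1 rise. In the methionine, folate and phospholipid list 3 of 38 rose and 1 fell (10.5% called, against 6.41% of all tested genes). Mat1a, the liver enzyme that makes the methyl donor S-adenosylmethionine, had 21855, 19635, 20840 and 25008 in young and 31457, 33495, 25680 and 31942 in middle-aged livers (log2 fold change 0.49 ± 0.10, DESeq2 adjusted p = 0.000221), while Chka, the choline kinase gene, had 275, 320, 372 and 363 in young and 188, 191, 211 and 169 in middle-aged livers (log2 fold change -0.81 ± 0.15, DESeq2 adjusted p = 1.68e-05). Neither gene overlapped between the ages, and both passed throughout. The phospholipid genes Pcyt1a, which regulates phosphatidylcholine synthesis (0.43), and Lpcat3 (0.50) rose as well, without a call by edgeR.

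**Figure D4:**
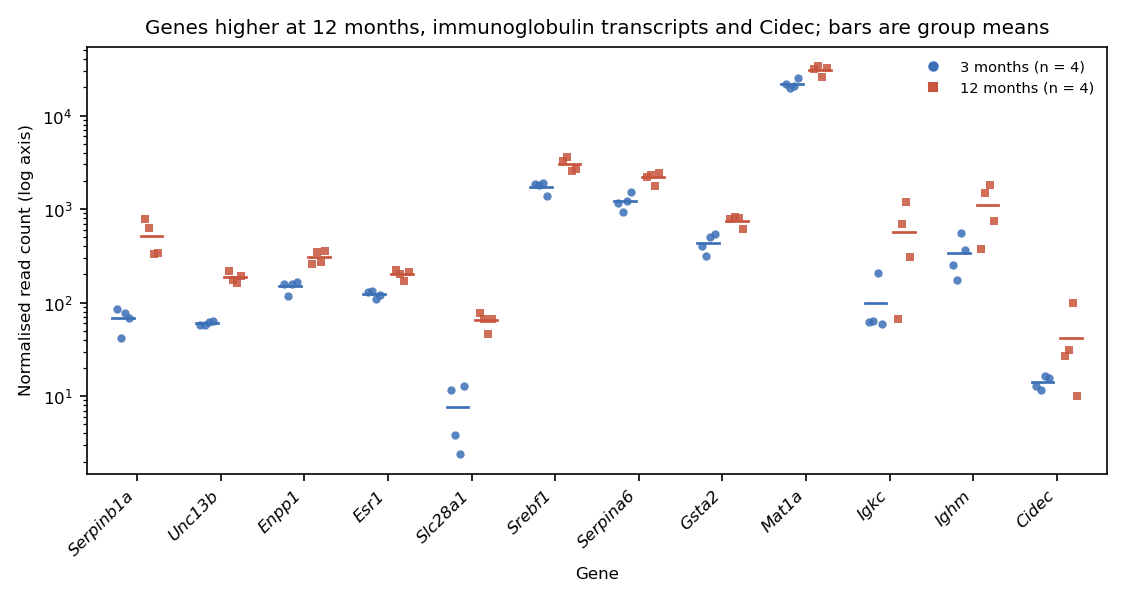
Normalised read counts (log axis) of 12 genes in each of 4 young (circles) and 4 middle-aged livers (squares), with bars at the group means. From Serpinb1a to Mat1a the ages do not overlap; for Igkc and Ighm middle-aged replicate 1 lies among the young livers, and the highest Cidec point, 98.9, is middle-aged replicate 3.

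Genes of glucose metabolism gave calls in both directions, none of them shared by edgeR. Of 38 glucose genes 4 rose and 1 fell (13.2% called, against 6.41% of all tested genes; median 0.03), among them Fbp1, an enzyme of gluconeogenesis (0.35), and the falling Pgk1, of glycolysis (-0.27). Pck1, which controls glucose output (-0.86), was not called. When 1 liver was left out, between 2 (without young replicate 2) and 7 (without young replicate 1) rises were called in this list. Of 42 genes of the urea cycle and amino acid breakdown 1 rose (2.38% called), Gpt2 (0.46), which edgeR did not call. Of 40 zonation markers 2 rose and 1 fell (7.5% called, near the 6.41% of all tested genes). Znrf3, a target and brake of Wnt signalling near the central vein, rose by 0.84 and passed throughout. The immunoglobulin transporter gene Pigr rose by 0.35, whereas Glul (-0.07) and Cyp2e1 (0.13) were not called.

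Called genes of the glucocorticoid list went in both directions, with the rises in the carrier gene Serpina6 and the receptor gene Nr3c1. Of 20 tested genes of the list of glucocorticoid targets and metallothioneins 3 fell and 2 rose, with a median of -0.65. Of its 22 expressed members 18 had a negative log2 fold change. Zbtb16, a transcription factor induced by glucocorticoids, had 346, 303, 128 and 306 in young and 69.5, 70, 49.4 and 59.1 in middle-aged livers (4.37-fold lower; log2 fold change -2.13 ± 0.30, DESeq2 adjusted p = 7.56e-10). Tsc22d3, which encodes the leucine zipper protein GILZ, had 374, 641, 769 and 972 in young and 286, 436, 314 and 306 in middle-aged livers (log2 fold change -1.04 ± 0.23, DESeq2 adjusted p = 0.000678). Serpina6, the plasma carrier of corticosteroids, had 1173, 922, 1212 and 1536 in young and 2221, 2332, 1760 and 2418 in middle-aged livers and rose (log2 fold change 0.85 ± 0.18, DESeq2 adjusted p = 0.000265). Zbtb16 and Serpina6 separated the ages and all 3 passed throughout, while the middle-aged value of Tsc22d3 in replicate 2 lay above young replicate 1. The metallothionein gene Mt1 had 66.9, 1868, 49.8 and 76.1 in young and 26.8, 53, 71.5 and 68.2 in middle-aged livers; it was high in young replicate 2 alone and received no adjusted p. The well-known target Fkbp5 was not called (-0.41). Nr3c1, the glucocorticoid receptor gene, rose (0.39), and Cebpd, a transcription factor that its ligand induces, fell (-0.90), with calls that edgeR did not share.

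Scara5, a receptor for ferritin, had 131, 268, 142 and 139 in young and 40.7, 33.2, 46.8 and 33.1 in middle-aged livers (4.4-fold lower; log2 fold change -2.14 ± 0.29, DESeq2 adjusted p = 2.19e-10), and passed throughout. It was 1 of 2 calls among 23 iron-handling genes (8.7% called, against 6.41% of all tested genes). The other was a rise of Bmp6, which signals to the iron hormone hepcidin (0.89). Immediate early genes, which respond to a stimulus within minutes, gave 3 falls among 15 tested members. Egr1 had 246, 675, 192 and 728 in young and 32.8, 26.9, 57.4 and 47.1 in middle-aged livers (11.2-fold lower; log2 fold change -3.49 ± 0.73, DESeq2 adjusted p = 0.000281) and passed throughout, with all middle-aged values below all young ones. Fos had 9.6, 84.1, 21.3 and 16.6 in young and 3, 6.3, 6.2 and 0 in middle-aged livers, all of them low, and its call was lost without young replicate 2 (DESeq2 adjusted p = 0.221). The median of this list was -0.98 in set A and 0.05 in set B.

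Acute phase and complement genes included several falls. Of 36 tested acute phase genes 8 fell and 0 rose, with a median of -0.29. Saa1, the major inducible acute phase apolipoprotein, had 729, 4034, 382 and 664 in young and 227, 167, 215 and 132 in middle-aged livers (log2 fold change -2.97 ± 0.71, DESeq2 adjusted p = 0.0021). Young replicate 2 was by far the highest, but the other young livers also lay above all middle-aged ones. Saa2 (-2.90) and the abundant protease inhibitor gene Serpina3k (-0.74) also fell. Without young replicate 2 the list held 3 falls and 2 rises, and its median was -0.15. That library also had the highest mitochondrial share. Its summed level of erythroid genes was the highest, at 7880 CPM against 2420 to 3750 CPM in the other young livers. The same held for neutrophil genes, at 30.4 CPM against 5.15 to 7.58 CPM. The part of these in the result was not tested. The interleukin-1 receptor gene Il1r1 (-1.68) was the only member that passed throughout, with a fall of -2.52 in set A and -0.27 in set B. Among 39 complement and coagulation genes 4 fell and 1 rose. C8b, a component of the membrane attack complex, had 5885, 6064, 5076 and 3841 in young and 3179, 2514, 3302 and 2751 in middle-aged livers (log2 fold change -0.83 ± 0.21, DESeq2 adjusted p = 0.00372) and passed throughout. The clotting factor gene F11 (-0.58) and Cpb2, which slows clot lysis (-0.28), fell, and C1s1, of the first complement complex, rose (0.28). EdgeR called none of these (edgeR adjusted p = 0.0896, 0.0731 and 0.122). Cpb2 passed in 8, F11 in 2 and C1s1 in 1 of 8 leave-one-out fits.

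Interferon-stimulated genes gave falls and no rises. Of 42 tested members 6 fell and 0 rose, 37 of 43 expressed members had a negative log2 fold change, and the median was -0.33 (-0.41 in set A and -0.32 in set B). Usp18, which dampens interferon signalling, had 86, 104, 54.5 and 60.5 in young and 34.8, 34.1, 26.5 and 34.1 in middle-aged livers (2.36-fold lower; log2 fold change -1.24 ± 0.26, DESeq2 adjusted p = 0.000284). Ifit3, an antiviral protein gene, had 166, 182, 162 and 163 in young and 115, 87.1, 103 and 85.2 in middle-aged livers (log2 fold change -0.78 ± 0.15, DESeq2 adjusted p = 3.78e-05). The ages did not overlap for these genes. Ifit1 (-0.85), Isg15 (-0.88), Bst2 (-0.53) and Irgm1 (-0.53) also fell, Ifit1, Ifit3 and Irgm1 passed throughout, and between 5 and 9 falls were called when 1 liver was left out. Antigen presentation gave 2 falls among 24 members (8.33% called, against 6.41% of all tested genes), B2m (-0.26) and H2-Q7 (-0.34). Neither fall was called by edgeR or without young replicate 2, and with an offset for exonic length the change of B2m was -0.04 and not called. The 8 class II genes all had a negative log2 fold change (median -0.52) and none was called.

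Immunoglobulin transcripts, the main product of B and plasma cells, were higher in 3 of the 4 middle-aged livers. Of 9 tested genes of the B and plasma cell list 4 rose and 0 fell. Igkc, the kappa light chain constant region, had 62.6, 63.7, 208 and 59.6 in young and 66.5, 690, 1190 and 309 in middle-aged livers (log2 fold change 2.52 ± 0.72, DESeq2 adjusted p = 0.0142), and Ighm had 255, 176, 550 and 367 and 378, 1484, 1816 and 738 (log2 fold change 1.71 ± 0.56, DESeq2 adjusted p = 0.0398). Ighg2c had 3.2, 0, 3.6 and 3.9 in young and 4, 102, 76.8 and 38.1 in middle-aged livers, and Ighg2b 1.1, 1.3, 0 and 2 and 2, 77.2, 38.9 and 34.1; both were singled out after their values were seen, and the young values lie at or near 0. Middle-aged replicate 1 was at the young level for all 4 genes. Without middle-aged replicate 2 DESeq2 called 0 genes of the list, and edgeR called 2 with all livers. The summed level of the list was 29.4 to 106 CPM in young and 54.4 to 417 CPM in middle-aged livers.

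Other cell types gave almost no calls. DESeq2 and edgeR called 0 of 15 tested Kupffer cell and macrophage genes, 17 endothelial, 15 stellate cell and fibroblast and 6 erythroid genes, where the DESeq2 p was under 0.05 before adjustment for 5, 3, 1 and 0 genes. By contrast 1 of 7 biliary genes fell. That gene was Tff3, a mucosal peptide, with 146, 346, 65.2 and 33.2 in young and 5, 7.2, 14.1 and 27.1 in middle-aged livers (log2 fold change -3.47 ± 0.82, DESeq2 adjusted p = 0.00177), and its fall was -5.33 in set A and -1.27 in set B. Adipocyte markers were high in middle-aged replicate 3 alone: Cfd had 8.5, 0, 36.7 and 5.9 in young and 2, 3.6, 342 and 2 in middle-aged livers, and Cidec, a lipid droplet gene also made by fatty hepatocytes, had 12.7, 11.5, 16.6 and 15.6 and 26.8, 31.4, 98.9 and 10. The summed adipocyte level was 107 CPM in that liver and at most 19.2 CPM in the young ones. T and NK cell and neutrophil markers were low, with 1 tested gene in each list and summed levels of at most 14.2 and 30.4 CPM. The neutrophil sum was 30.4 CPM in young replicate 2 and 5.15 to 7.58 CPM in the other young livers. Among extracellular matrix genes 4 of 36 rose, among them fibronectin (Fn1, 0.49) and Col15a1 (0.83), and 1 fell, Col4a2 (-0.46). That is 13.9% called, against 6.41% of all tested genes. None of them passed throughout, and the list held 0 rises without middle-aged replicate 3.

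Genes for ribosomes and the respiratory chain had small negative log2 fold changes almost throughout. All 80 expressed cytosolic ribosomal protein genes had a negative log2 fold change, with a median of -0.36 (-0.47 in set A and -0.24 in set B), and 24 of 79 tested ones were called lower. Rplp1, of the large subunit stalk, had 5159, 7075, 5838 and 5308 in young and 4070, 3733, 4140 and 4322 in middle-aged livers (log2 fold change -0.52 ± 0.14, DESeq2 adjusted p = 0.00791). Nuclear genes for respiratory chain subunits gave 15 falls among 79 tested members, and 77 of the 79 had a negative log2 fold change (median -0.31). The falls lay in complex IV (6 of 11, median -0.41), complex I (5 of 36), complex V (3 of 16) and complex III (1 of 12), with 0 of 4 in complex II. Atp5g1, of the ATP synthase ring, had 1870, 1996, 1717 and 1466 in young and 1402, 1234, 1185 and 1255 in middle-aged livers (log2 fold change -0.47 ± 0.11, DESeq2 adjusted p = 0.00169) and was the only member to pass throughout. Values of both genes did not overlap between the ages. EdgeR called 0 ribosomal genes (unadjusted p under 0.05 for 74) and 1 respiratory chain gene. Without young replicate 2, DESeq2 called 0 ribosomal genes (unadjusted p under 0.05 for 44) and 1 respiratory chain gene, and the medians were -0.26 and -0.22.

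For mitochondrially encoded messengers the same library moved the median most. Among 8 expressed genes all log2 fold changes were negative, with a median of -0.90, which was -1.45 in set A, -0.19 in set B and -0.42 without young replicate 2. The cytochrome b gene mt-Cytb had 217619, 460725, 213890 and 144656 in young and 116513, 126803, 124634 and 156147 in middle-aged livers (log2 fold change -0.98 ± 0.33, DESeq2 adjusted p = 0.0487), and it was the only one called of 7 tested. The call of mt-Cytb passed in 3 of 8 leave-one-out fits and not by edgeR (edgeR adjusted p = 0.0697), and the list held from 0 (without young replicate 3) to 7 falls (without young replicate 4). Young replicate 4 lay within the middle-aged range. Mitochondrial ribosomal proteins (3 of 76 lower, median -0.24) and proteasome subunits (3 of 37 lower, median -0.21) had smaller medians, and none of their members passed throughout. Their shares called were 3.95% and 8.11%, against 6.41% of all tested genes.

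The sign of the median change differed between short and long genes, and the lists above differ in length. Among tested genes with an exonic length of up to 1000 bases the median log2 fold change was -0.26, with 6 rises and 31 falls among 269. It was -0.15 for genes of up to 2000 bases, -0.05 up to 4000, 0.04 up to 8000 and 0.14 above 8000 bases, where 136 rose and 20 fell among 2086. The order was kept in set A, in set B and without young replicate 2, where the medians ran from -0.18 to 0.11. Single young livers spread as widely, since young replicate 1 ran from -0.20 to 0.13 and young replicate 2 from 0.33 to -0.14 against the other young livers. The median exonic length was 1805 bases for the ribosomal list, 1675 for the respiratory chain and 5409 for the clock list. With an offset for exonic length fitted in each library, 9 ribosomal and 6 respiratory chain genes were called lower, with medians of -0.23 and -0.16, while 7 rises and 1 fall were called in the clock list, 5 falls in the male-biased list and 6 in the interferon list. What gives rise to the relation with length was not tested.

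**Figure D5:**
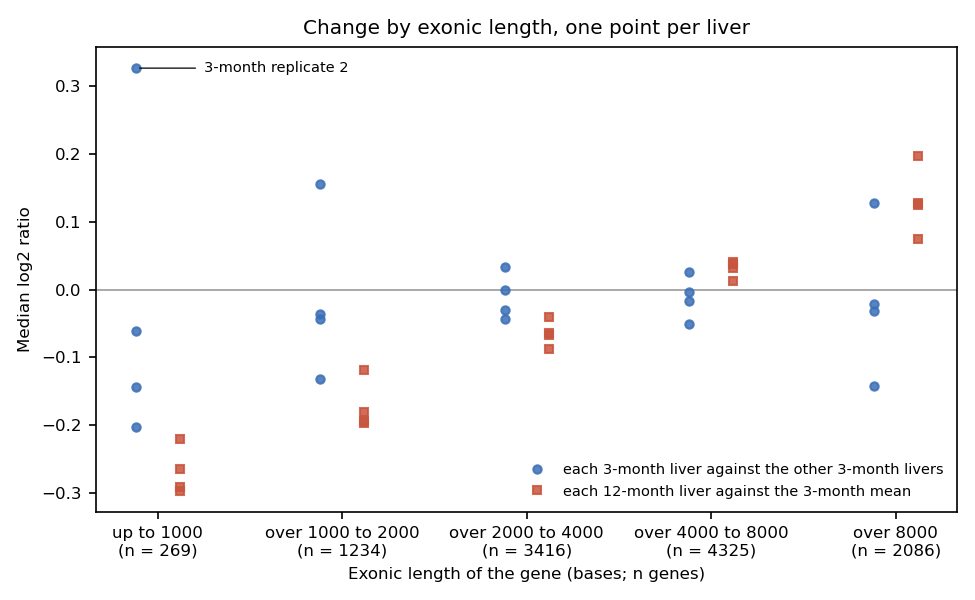
Median log2 ratio of tested genes in 5 classes of exonic length (bases), with a point for each library: middle-aged livers against the mean of the young ones (squares), and each young liver against the mean of the other 3 (circles). The middle-aged points run from -0.30 to -0.22 in the shortest class and from 0.08 to 0.20 in the longest, while young replicate 1 runs from -0.20 to 0.13 and young replicate 2 the other way, from 0.33 to -0.14.

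The lists of protein folding and of heat shock chaperones gave falls and no rises, with 12.5% and 11.1% called against 6.41% of all tested genes. Of 32 tested genes of endoplasmic reticulum folding and the unfolded protein response 4 fell and 0 rose, and 32 of 33 expressed members had a negative log2 fold change. Manf, a secreted stress protein, had 1465, 1544, 2614 and 2001 in young and 1372, 786, 612 and 847 in middle-aged livers (log2 fold change -1.08 ± 0.36, DESeq2 adjusted p = 0.0435), so that middle-aged replicate 1 lay close to the young livers. Heat shock chaperones gave 3 falls among 27, with Hsp90aa1 at -0.67, and a median of 0.01 in set A and -0.38 in set B. EdgeR called 0 genes of either list (unadjusted p under 0.05 for 14 and 8), and DESeq2 called 0 folding genes without young replicate 3 and 0 chaperones without middle-aged replicate 3.

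Among 29 RNA-binding and splicing genes 6 fell and 0 rose (20.7% called). U2af1, which recognises the end of introns, had 352, 494, 385 and 435 in young and 292, 295, 313 and 262 in middle-aged livers (log2 fold change -0.52 ± 0.11, DESeq2 adjusted p = 0.000678), and the nuclear RNA Neat1 fell by a log2 fold change of -1.08 (-1.71 in set A and -0.31 in set B); both passed throughout. Of 35 genes of RNA polymerase II and its pausing 2 fell (5.71% called, below the 6.41% of all tested genes). Gtf2b, the initiation factor TFIIB, had 263, 330, 250 and 216 in young and 185, 180, 166 and 166 in middle-aged livers (log2 fold change -0.60 ± 0.14, DESeq2 adjusted p = 0.000892), without overlap, and passed throughout, and the subunit gene Polr2i fell by a log2 fold change of -0.55. The largest subunit, Polr2a, was not called (0.28).

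Several processes often linked to age were examined at 12 months, and some gave no call. Autophagy and lysosome genes (0 of 37), peroxisome biogenesis (0 of 16), aminoacyl-tRNA synthetases (0 of 20) and mitosis and DNA replication (0 of 19) had none by DESeq2 or by edgeR, with a DESeq2 p under 0.05 before adjustment for 7, 3, 5 and 2 genes. Sirtuins and NAD metabolism gave 1 rise in 28 (Nadk, 0.36), the NRF2 targets 1 rise in 24 (Gclm, 0.22), the integrated stress response 1 rise in 17 and the enzymes that remove superoxide and peroxide 2 falls in 23 (Prdx1, -0.30, and Txn1, -0.37). Neither of these falls was called by edgeR or without young replicate 2. The shares called in these lists were 3.57%, 4.17%, 5.88% and 8.7%, against 6.41% of all tested genes. Of 13 tested cell cycle inhibitors and senescence genes 1 fell (7.69% called, against 6.41% of all tested genes). That gene was Btg2 (-1.45), with -2.89 in set A and 0 in set B. The list held no call when any 1 liver was left out. The inhibitor gene Cdkn1a had 40.3, 108, 49.8 and 129 in young and 22.8, 42.2, 63.6 and 46.1 in middle-aged livers and was not called (DESeq2 adjusted p = 0.26). The log2 fold change of Sirt1 was 0.01 ± 0.24, and 2 of 11 hypoxia genes rose.

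The change with age differed between the 2 sets of livers for some genes. The interaction of age and set was called for 55 of 13005 genes (0.423%), and 47 of these moved in opposite directions in set A and set B. Hhex, a transcription factor of liver development, had 1562, 1196, 325 and 232 in young and 646, 653, 1035 and 1227 in middle-aged livers (change -1.09 in set A and 2.02 in set B; interaction, DESeq2 adjusted p = 4.04e-27). Gadd45g, a growth arrest gene, had 573, 666, 59.2 and 51.7 in young and 33.8, 37.7, 166 and 306 in middle-aged livers (interaction, DESeq2 adjusted p = 6.79e-16). G6pc, the last enzyme of glucose release, had 1408, 1411, 4038 and 2560 in young and 2685, 2877, 1420 and 1044 in middle-aged livers (change 0.98 and -1.43). In each of these genes the young livers were above the middle-aged ones in one set and below them in the other, and none was called over all 8 livers (log2 fold changes 0.10, -1.31 and -0.23). Myc, a growth factor-responsive regulator, had a change of -2.33 in set A and 2.23 in set B (interaction, DESeq2 adjusted p = 1.77e-06). EdgeR called the interaction for 19 genes. Of the 55 genes 7 were also called between the ages, among them Btg2, Cyp2c37, Egfr, Il1r1, Neat1 and Tff3. Apart from Btg2, other called genes, 726 in number, had the same direction in both sets. The sets are parts of the livers that gave the calls, and 651 of the 727 called genes had no overlap between the ages. This agreement is therefore no separate support. Fitted alone, both sets called 47 of the 727 genes.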

How the data were processed

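Liver RNA of 4 young, 4 middle-aged and 4 aged mice, 1 animal per library, was profiled by RNA-seq with added spike-ins, using a kit for directional libraries per the labels. The deposited table holds raw read counts per gene, which the authors made from aligned reads. The submitters' processing notes name STAR 2.5.2b, SAMtools 1.9, featureCounts, R 3.6.3, edgeR 3.28.1 and DESeq2 1.26.0 with builds mm10 and GRCm38. The annotation release and the strand setting of the counting were not given in the sources used here, so overlapping, antisense and near-identical genes are uncertain.

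The table held 53465 genes, of which 28449 had a count and 53360 were found in GENCODE M21, which supplied symbols, coordinates and exonic lengths, and 92 spike-ins. Gene counts were 8124312 to 10527159 in the 8 libraries. A count of 3 was taken as the floor, which covers counting error only. Replicates of a group were never within sampling noise of each other (chi-square per gene at least 11.3 over 8899 genes).

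Counts were fitted with DESeq2 1.42.0 (R 4.3.3) on age over all 12 libraries, with the Wald test, independent filtering and Benjamini-Hochberg adjusted p under 0.05. Alternatives were edgeR 4.0.16, limma 3.58.1 (voom), TMM factors, a filter of 10 counts in 4 libraries, no independent filtering, the 8 libraries alone, a replicate block, the spike-in set as covariate, each set alone and each liver left out. A joint omission of young replicate 3 and middle-aged replicate 1 and an offset for exonic length (lowess, span 0.3) were chosen after seeing the data. The interaction was tested with terms for age, set and their product. Scripts were tested on simulated data.

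Members and 60 gene lists (1602 genes) were chosen with earlier results of these data known. Named genes are the 10 protein-coding genes with the largest rise and the 10 with the largest fall (1 Mup at most) among called genes with a mean of at least 50 and no overlap between ages, up to 3 rises and 3 falls with the lowest adjusted p in each list, and all members of the clock list and of lists with up to 8 tested genes. Other genes were named for their role, after values were seen. Some genes that this rule names are not reported here.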

Additional observations from a re-analysis of the deposited data

Results flagged for a closer look

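Of 126 groups of 4 livers examined by Dixon's test at the 95% level, 12 had 1 liver far from the other 3, where chance gives about 1 in 20, or 6.3. Young replicate 2 was the distant liver for Mt1 (1868.4 normalised read counts), Saa1 (4033.5), Fos (84.1), Scara5 (267.5), Ifit3 (182.1) and Igf1 (6271.2). It lay above the other young livers in each case, and it was also the library with the highest mitochondrial and spike-in shares. Young replicate 3 stood apart in Igkc (208.5) and, with 22284, in the number of genes detected. For Hsd3b5 the distant livers were young replicate 1 (4214.1) and middle-aged replicate 2 (1985.9), the first within a narrow young range. Usp18 was lowest in middle-aged replicate 3 (26.5), and Cfd, an adipocyte gene, was highest there (341.7).

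The change with age differed between replicates 1 and 2 and replicates 3 and 4 in 55 genes (interaction of age and set, DESeq2). Among the genes with values in every liver above, the interaction on the log2 scale, set B minus set A, was 4.08 for Tff3, 3.11 for Hhex, 6.20 for Gadd45g, -2.40 for G6pc and 6.04 for Cish. Tff3 kept 1 direction in both sets, while the others reversed. Spike-in RNAs, which enter no comparison, made up at least 1.59% of all counts in each of the 8 libraries.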

How the results depend on the processing

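Of the called genes (727), limma voom gave 702, TMM factors 740, the filter on low counts 710, the set covariate 736 and the length offset 655. Fewer were called by edgeR (280), without independent filtering (443), in replicates 1 and 2 alone (251), in replicates 3 and 4 alone (305) and without young replicate 3 and middle-aged replicate 1 together (271, chosen after seeing the data); the fit of the 8 libraries alone gave 1166. Leaving out 1 liver gave 345 to 840 calls. The interaction was called for 19 genes by edgeR and 84 in the 8-library fit, against 55. Over replicates 3 and 4 alone, where fewer animals entered, the log2 fold change of Btg2 was 0, against -1.45. Of 140 named genes that were called, edgeR also called 68, the fit without young replicate 2 called 89 and that with the length offset 124, and of these 140 only Btg2 changed direction in a setting. Named genes that were not called also changed sign, such as Cfd (2.77, and -2.33 without middle-aged replicate 3).

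A replicate block left 385 calls by DESeq2, 365 of them among the 727, and 119 by edgeR. The numbers did not pair the livers: deviations of same-numbered young and middle-aged livers correlated at 0.09, -0.138, -0.098 and 0.139 across 8888 genes, and not every liver correlated best with its own number, so the samples share only a number.

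At the depth of these libraries the floor of 3 counts was 0.285 to 0.369 CPM. The set and the library composition cannot be separated from single animals here. The spike-in share did not overlap between the ages, and the hour of dissection is unknown. A difference between the groups in either cannot be told apart from age. Each p-value sets a difference against the spread between these animals.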
